A study of Mus musculus with 15 samples.

Results

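Pancreatic islets carry a small group of genes whose products write, read or remove the marks on lysine 27 of histone H3, and the deposited peak lists show how those genes are themselves marked. The 10 genes described here were taken by name out of 22028 protein-coding genes of the GENCODE M21 annotation of the mouse genome build GRCm38. They are the H3K27 methyltransferases Ezh1 and Ezh2, their core partners Eed and Suz12, the accessory subunit Jarid2, the Polycomb repressive complex 1 (PRC1) subunit Bmi1, the demethylases Kdm6a and Kdm6b, and the acetyltransferases Ep300 and Crebbp. A peak was assigned to a gene when it overlapped the window of 1 kb on either side of the transcription start site (TSS), or, for the locus, the gene body with 20 kb on either side. The rule uses no measured value, although the genes were chosen with earlier results of these data known.

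H3K27Ac, the acetylated form, is found at active promoters and enhancers, and H3K27Me3, the trimethylated form, at chromatin repressed by Polycomb proteins. Polycomb repressive complex 2 (PRC2) places the methyl groups through Ezh1 or Ezh2, which need Eed and Suz12 for activity, and Kdm6a (UTX) and Kdm6b (JMJD3) take them off. Ep300 (p300) and Crebbp (CBP) acetylate the same lysine, which then cannot be methylated, while Bmi1 belongs to PRC1, a complex recruited in part by H3K27Me3. In beta cells Ezh2 and Bmi1 are known for repressing Cdkn2a, a brake on replication.

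Islets came from CBA mice, males per the study's methods, that were fed a regular diet (RD), a high-fat diet (HFD) or the high-fat diet formulated with O304 (HFD-O304), a small molecule described by the study as an activator of the kinase AMPK. All mice were of the same strain and carried no transgene or deletion named in the labels. About 600 hand-picked islets went into each chromatin immunoprecipitation (ChIP), and islets were pooled before lysis, so a replicate is not a single animal. The 12 ChIP samples comprise 2 replicates for each of 2 marks in 3 diets, and the 3 input samples are not used here. The authors merged the 2 replicates before calling peaks, so each mark and diet is 1 list, no spread between replicates can be given and no difference between diets could be tested.

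The lists rest on 83773042 to 95218072 kept fragments for H3K27Ac and on 54166902 to 74870300 for H3K27Me3, with 17.2% to 18.4% and 45.7% to 56.9% of fragments removed as duplicates. Signal is given as enrichment, the mean pileup of a peak over the uniform background of its list (kept fragments times fragment length over the effective genome size in the file headers). Values for the 3 diets are given in the order RD, HFD, HFD-O304 unless stated. The weakest called peak had an enrichment of 2.40, 2.26 and 2.37 for H3K27Ac and of 2.74, 3.10 and 2.97 for H3K27Me3. Values in brackets are exact 95% Poisson intervals on the fragments under a peak, and they cover counting error only. The tissue label was checked against marker genes. H3K27Ac peaks lay at the TSS of 7, 8 and 8 of 10 islet endocrine genes, with Ins2 and Gcg lacking one in all 3 lists, although Ins2 had one at another annotated start. None of 3 acinar, 3 leukocyte, 3 endothelial and 3 mesenchymal markers had such a peak. In chromatin from whole islets, a change in the make-up of the cells and a change of the mark within cells cannot be told apart.

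The sequences on which the results turn are given first, in lower case with each CpG in capitals, from the C57BL/6J reference of GRCm38.p6. A CpG-rich promoter is the usual setting of a housekeeping-type start site. The 4 promoters are RefSeq windows of 300 bases around a curated start (250 bases before and 50 after). Ep300 and Crebbp are shown as the paralogs with the strongest H3K27Ac peaks at the TSS. Suz12 is shown as the gene whose enrichment differed most between diets among those with a TSS peak in every diet. Bmi1 is shown as the gene with a called TSS peak in HFD and HFD-O304 and none in RD.
Ep300 promoter, plus strand, chr15:81585964-81586263: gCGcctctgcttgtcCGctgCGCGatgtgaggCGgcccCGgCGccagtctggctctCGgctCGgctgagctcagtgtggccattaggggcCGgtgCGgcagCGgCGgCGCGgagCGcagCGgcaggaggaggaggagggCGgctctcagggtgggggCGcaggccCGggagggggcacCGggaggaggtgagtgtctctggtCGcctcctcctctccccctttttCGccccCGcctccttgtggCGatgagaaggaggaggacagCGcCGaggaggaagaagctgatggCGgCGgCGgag
Crebbp promoter, minus strand, chr16:4213355-4213654: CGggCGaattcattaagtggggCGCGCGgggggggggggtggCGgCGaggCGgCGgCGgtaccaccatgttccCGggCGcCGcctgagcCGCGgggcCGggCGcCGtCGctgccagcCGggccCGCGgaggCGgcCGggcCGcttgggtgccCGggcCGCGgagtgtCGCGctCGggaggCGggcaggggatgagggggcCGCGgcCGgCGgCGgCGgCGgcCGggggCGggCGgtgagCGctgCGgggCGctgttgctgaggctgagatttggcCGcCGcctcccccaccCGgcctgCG
Suz12 promoter, plus strand, chr11:79992856-79993155: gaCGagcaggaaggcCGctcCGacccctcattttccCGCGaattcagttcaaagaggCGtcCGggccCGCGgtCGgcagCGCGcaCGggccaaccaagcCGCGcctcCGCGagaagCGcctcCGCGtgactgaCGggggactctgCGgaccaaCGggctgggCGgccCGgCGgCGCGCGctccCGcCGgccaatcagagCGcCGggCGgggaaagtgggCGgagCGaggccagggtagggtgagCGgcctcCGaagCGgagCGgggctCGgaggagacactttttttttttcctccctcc
Bmi1 promoter, plus strand, chr2:18676768-18677067: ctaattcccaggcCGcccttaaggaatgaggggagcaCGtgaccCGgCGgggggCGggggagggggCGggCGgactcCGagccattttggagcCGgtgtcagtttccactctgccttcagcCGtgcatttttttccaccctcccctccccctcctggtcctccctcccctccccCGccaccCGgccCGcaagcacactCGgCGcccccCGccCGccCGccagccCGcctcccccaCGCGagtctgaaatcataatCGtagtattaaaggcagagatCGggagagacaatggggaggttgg

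These windows held 30, 49, 41 and 23 CpGs with a GC content of 72.3%, 82.0%, 71.0% and 66.3%. Over all 32851 promoter windows of the RefSeq table the median was 7 CpGs and 52.7% GC. Of the 10 genes, 9 matched the table, with 10 windows because Jarid2 has 2, and their CpG counts ran from 17 at Eed to 49 at Crebbp. The letters GGGCGG, searched on both strands, were in 7 of the 10 windows and in 35.7% of all windows, and CCAAT in 5 of 10 and 37.4%. CACGTG was in the Bmi1 and Kdm6a windows and in 7.15% of all, TATAAA in 1 Jarid2 window and 13.6%, and TTTGGCG in the Ezh2 window and 1.56%. CCGGAAG (8.86% of all windows), TTTCGCG (0.849%) and TGACGTCA (1.79%) were in none of the 10.

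Further sequences come from peaks away from the start sites, and each line holds 300 bases on the plus strand. The Jarid2 site is shown because it carried the strongest peaks of all loci in each of the 6 lists, and the Bmi1 site because both marks were called on it in every diet.
Jarid2 intronic site, chr13:44869649-44869948: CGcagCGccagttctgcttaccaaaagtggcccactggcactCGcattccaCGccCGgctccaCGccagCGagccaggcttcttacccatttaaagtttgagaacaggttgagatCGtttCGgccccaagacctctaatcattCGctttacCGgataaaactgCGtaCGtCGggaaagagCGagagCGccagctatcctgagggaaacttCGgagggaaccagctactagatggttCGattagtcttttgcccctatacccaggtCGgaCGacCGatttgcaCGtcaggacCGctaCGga
Bmi1 downstream site, chr2:18689505-18689804: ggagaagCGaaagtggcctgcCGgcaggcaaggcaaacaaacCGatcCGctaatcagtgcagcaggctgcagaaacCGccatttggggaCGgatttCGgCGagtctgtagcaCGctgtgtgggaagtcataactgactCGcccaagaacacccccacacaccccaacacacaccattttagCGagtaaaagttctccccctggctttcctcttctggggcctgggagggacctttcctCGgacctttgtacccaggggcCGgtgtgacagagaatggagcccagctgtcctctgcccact

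The first comparison asked which of the genes had a called mark at the TSS. H3K27Ac was called at 8 of 10 under RD, at 9 under HFD and at all 10 with O304, against 43.9%, 49.7% and 49.2% of all protein-coding genes. H3K27Me3 was called at none of the 10 in any diet, against 6.62%, 8.45% and 8.88% of all genes. The 8 genes with H3K27Ac in every diet were Ezh1, Ezh2, Eed, Suz12, Jarid2, Kdm6a, Ep300 and Crebbp (8 of 10, 42.4% of all genes). Bmi1 had a peak in HFD and HFD-O304 and none in RD, a pattern of 4.49% of all genes, and Kdm6b had one in HFD-O304 alone, a pattern of 1.84%. With a stricter −log10 q of at least 5 the counts were 6, 8 and 10, since Jarid2 and Kdm6a in RD and Kdm6a in HFD fell below it.

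The sequence within 500 bp of the TSS was CpG-rich (GC of at least 55% and an observed over expected CpG ratio of at least 0.6) in 8 of the 10 genes, against 38.2% of all genes, with ratios from 0.731 at Ep300 to 1.03 at Crebbp. Jarid2 (49.3% GC, ratio 0.65) and Kdm6b (53.0% GC, ratio 0.172) did not meet this. Of all 8406 CpG-rich genes, 81.3%, 87.9% and 87.2% had H3K27Ac at the TSS in the 3 lists. Of the genes that are not CpG-rich, 20.9%, 26.1% and 25.7% had it. Calls at the 8 CpG-rich genes of the 10 are to be read against the former shares. Those at Jarid2 and Kdm6b are to be read against the latter.

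**Figure D1:**
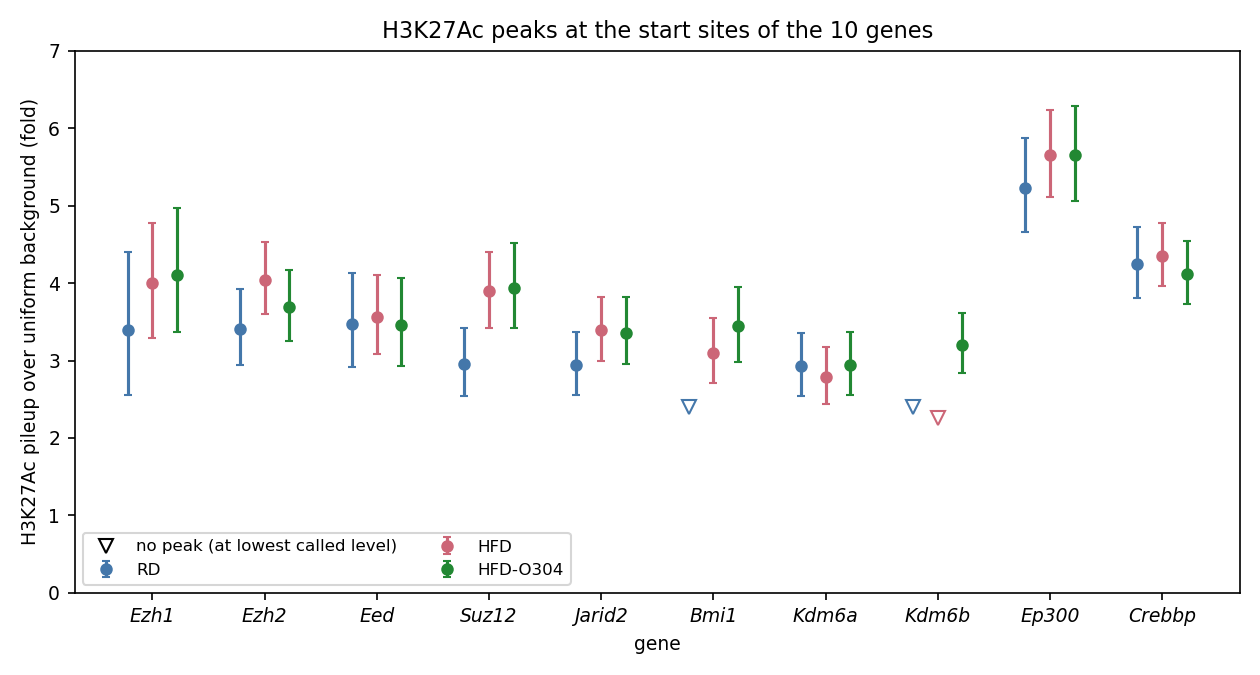
Enrichment of the H3K27Ac peak at the TSS (vertical axis, fold over uniform background, linear from 0) for the 10 genes (horizontal axis) in RD, HFD and HFD-O304. Points are single lists of 2 merged replicates, bars are 95% Poisson intervals for counting error, and open triangles mark genes without a peak, drawn at the weakest enrichment called in that list. Ep300 stands highest in every diet, at 5.23 to 5.65, and Kdm6a lowest among the genes with a peak in all diets, at 2.79 to 2.94.

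Among the writers of methylation, the catalytic subunits had similar signal at their starts. Ezh2 (chr6:47530139-47595341, minus strand) is the methyltransferase of dividing cells, and its TSS peak had an enrichment of 3.40 (2.95 to 3.93), 4.04 (3.60 to 4.53) and 3.69 (3.25 to 4.16). Ezh1 (chr11:101191115-101226463, minus strand), the paralog found more in resting cells, had 3.39 (2.56 to 4.4), 4.00 (3.29 to 4.78) and 4.10 (3.37 to 4.96). For both genes RD was the lowest of the 3 values and all intervals overlapped. Their widths differed: the Ezh1 peak spanned 369, 567 and 580 bp and began at or after the start, whereas that of Ezh2 spanned 1263, 1438 and 1551 bp and covered it. Among all TSS peaks of a list, the Ezh1 peaks stood at percentiles 6.99, 16.8 and 19.4 of width.

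Eed (chr7:89954654-89980983, minus strand), which binds H3K27Me3 and anchors the complex to it, had the most even signal of the PRC2 genes. Its enrichment was 3.47 (2.91 to 4.13), 3.56 (3.08 to 4.10) and 3.45 (2.92 to 4.07), with ratios between diets from 0.971 to 1.02. Suz12 (chr11:79993106-80034123, plus strand), the scaffold of PRC2, had 2.96 (2.54 to 3.42) under RD, 3.89 (3.43 to 4.41) under HFD and 3.94 (3.42 to 4.52) with O304. The RD value was thus the lowest. RD against HFD was the only one of 25 pairs of diets, over the genes with TSS peaks in both, whose intervals did not overlap. The share of all genes with such intervals was not computed, so this is not read as particular to Suz12. The RD and HFD-O304 intervals of Suz12 just overlapped. The RD peak of Suz12 was also the widest, at 1345 bp against 1261 and 1149 bp, and pileup is a mean over each list's own peak.

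Jarid2 (chr13:44729474-44921643, plus strand) helps to bring PRC2 to its targets. Its TSS peak had an enrichment of 2.94 (2.55 to 3.37), 3.39 (3.0 to 3.81) and 3.36 (2.95 to 3.82), over 1564, 1588 and 1568 bp. Again RD was lowest with overlapping intervals. A further H3K27Ac peak, 3.7 to 4.9 kb into the gene and over an annotated exon, was called in all diets at 3.72, 3.69 and 3.49, and there RD was the highest value.

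Bmi1 (chr2:18677018-18686629, plus strand), which supports the ubiquitin ligase of PRC1 and self-renewal of many cell types, had a TSS peak of 1371 bp with an enrichment of 3.10 (2.71 to 3.55) in HFD and of 1316 bp with 3.44 (2.98 to 3.94) in HFD-O304. No peak was called there in RD, and since the weakest RD peak of the genome had 2.40, a signal just under that level would not be listed. The signal at Bmi1 in RD is not given in the lists, and the size of the difference from RD is therefore not known. The RD list had no peak at this start under any of the settings tried, which included windows of 500 and 2000 bp, any annotated coding transcript start and RefSeq starts. All of these read the same list, so they cannot show whether RD signal lay just under the level called.

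Of the demethylases, Kdm6a had the lowest signal of the genes with a peak in every diet. Kdm6a (chrX:18162575-18279936, plus strand), an X-linked gene, had an enrichment of 2.93 (2.55 to 3.36), 2.79 (2.44 to 3.18) and 2.94 (2.55 to 3.37), on peaks of 1592, 1604 and 1570 bp. These values stood at percentiles 31.1, 22.3 and 25.6 of TSS peaks, and HFD was the lowest of the 3. Males have 1 X chromosome, so the comparison of this level with those of autosomal genes also holds a difference in gene copies.

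Kdm6b (chr11:69398508-69413675, minus strand), an inducible demethylase, depended on which start was used. At the GENCODE start a peak was called in HFD-O304 alone, with an enrichment of 3.20 (2.83 to 3.61) over 1839 bp, and its nearer edge lay at −679 bp from that start. The curated RefSeq start lies 2519 bp further upstream, and with RefSeq starts Kdm6b had a peak in all 3 diets, at 3.63 (3.32 to 3.96), 3.96 (3.73 to 4.21) and 3.20. With these starts H3K27Ac was called at 9, 10 and 10 of the genes, against 48.0%, 54.1% and 53.5% of the 20327 genes with a curated start. The RD peak stayed 920 bp upstream of the RefSeq start, while the HFD peak ran over it as a single stretch of 5288 bp. In HFD-O304 the same stretch was called as 2 peaks, of which the upstream one had 4.29 (3.92 to 4.69) over 2499 bp.

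A wide H3K27Ac peak also lay over exons of Kdm6b in every diet, 1.6 to 5.9 kb into the gene. It spanned 3977, 4260 and 3808 bp, with an enrichment of 2.96 (2.71 to 3.22), 3.52 (3.27 to 3.78) and 3.50 (3.22 to 3.79). The RD interval lay below that of HFD. Its upper end also lay just under the lower end of the HFD-O304 interval (3.222 against 3.223). HFD and HFD-O304 had nearly the same value. These intervals cover counting error only, and the share of all peaks with intervals apart was not computed. Kdm6b thus had H3K27Ac on both sides of its GENCODE start in all diets, and the call within 1 kb of that start is a matter of where the peaks ended.

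**Figure D2:**
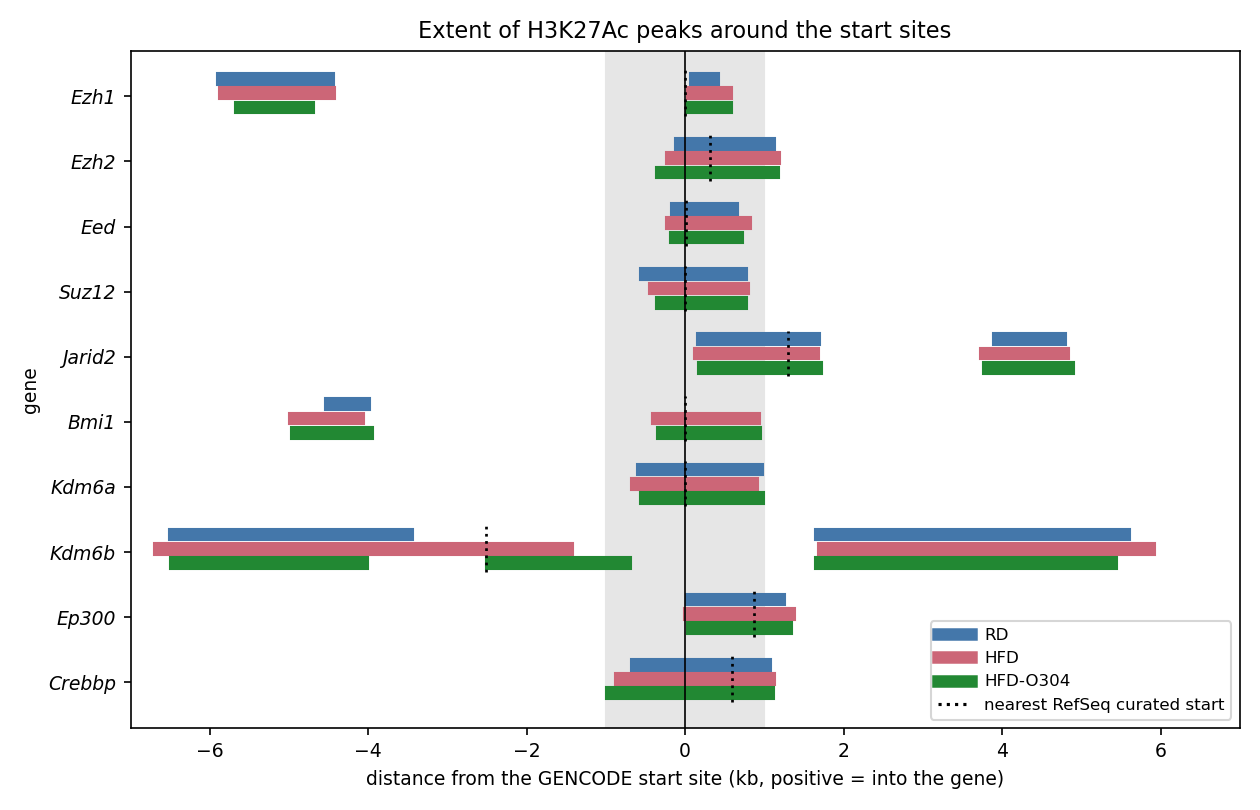
Extent of the H3K27Ac peaks within 7 kb of the GENCODE start (horizontal axis, kb, positive into the gene) for the 10 genes (vertical axis), 1 bar per peak and diet. The grey band is the window of 1 kb on either side, and the dotted line is the nearest curated RefSeq start, which lies 2519 bp upstream for Kdm6b. The Bmi1 start has bars in HFD and HFD-O304 only, and the Kdm6b bars flank the start.

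The acetyltransferases had the strongest TSS peaks of the 10 genes. Ep300 (chr15:81585351-81652077, plus strand) had an enrichment of 5.23 (4.66 to 5.87), 5.65 (5.11 to 6.23) and 5.65 (5.06 to 6.28), on 1253, 1401 and 1329 bp. This placed it at percentile 99.5 of all TSS peaks in RD and 99.6 in the other lists. Crebbp (chr16:4081328-4213997, minus strand), its paralog, had 4.25 (3.81 to 4.73), 4.35 (3.96 to 4.78) and 4.12 (3.73 to 4.55). The Crebbp peak was the widest TSS peak among the 10 genes in each list, at 1765, 2012 and 2121 bp, which is percentile 86.2, 86.6 and 89.4 of all TSS peaks. The Ep300 and Crebbp intervals did not overlap in HFD or in HFD-O304. In both genes the intervals of the 3 diets overlapped.

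Ordered by enrichment in RD, the genes ran Ep300, Crebbp, Eed, Ezh2, Ezh1, Suz12, Jarid2 and Kdm6a. Apart from Ep300 and its neighbour Crebbp in HFD and HFD-O304, the neighbours in this order had overlapping intervals. The peaks lay mostly downstream of the start, with the centre into the gene for 8 of 8 in RD, 9 of 9 in HFD and 9 of 10 in HFD-O304, the exception being Kdm6b. Over all genes with a TSS peak 77.8% to 78.5% had the centre downstream. The nearest curated RefSeq start of Ezh2, Jarid2, Ep300 and Crebbp lies 311, 1300, 863 and 593 bp into the GENCODE gene. The part of annotation in this offset was not tested.

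The second comparison set the diets against each other for the 8 genes with a TSS peak in every diet. HFD was above RD in 7 of 8, against 66.9% of the 9336 genes with a peak in all diets, and the exception was Kdm6a. HFD-O304 was above RD in 6 of 8, against 71.2%, the exceptions being Eed and Crebbp. HFD was above HFD-O304 in 4 of 8 (Ezh2, Eed, Jarid2 and Crebbp), against 45.6%. The last 2 shares were near those of all genes, the first rests on 8 genes, and the 3 comparisons share lists.

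The sizes were small too. The median ratio of HFD over RD was 1.12 for the 8 genes (from 0.954 at Kdm6a to 1.32 at Suz12) and 1.05 for all genes, whose middle 50% ran from 0.976 to 1.13. For HFD-O304 over RD it was 1.08, from 0.970 at Crebbp to 1.33 at Suz12, and 1.06 for all genes. HFD-O304 over HFD had a median of 0.996 against 1.01. Suz12, Ezh1, Ezh2 and Jarid2 were above the middle 50% of all genes for HFD over RD, and Suz12, Ezh1 and Jarid2 for HFD-O304 over RD. The HFD library was the deepest for H3K27Ac and RD the shallowest, and the part of depth in these ratios was not tested.

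**Figure D3:**
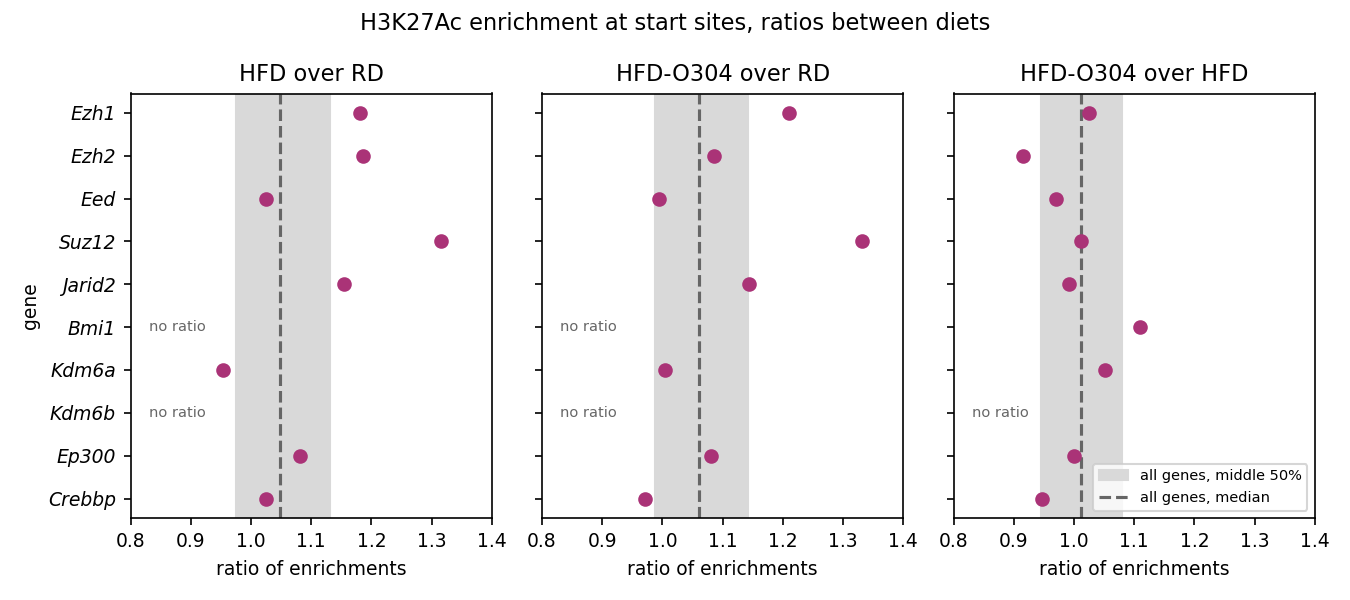
Ratio of H3K27Ac enrichment at the TSS between pairs of diets (horizontal axis, linear ratio) for each gene with a peak in both diets (vertical axis). Grey bands and dashed lines give the middle 50% and the median of the 9336 genes with a peak in all diets. Suz12 lies furthest to the right for HFD and HFD-O304 over RD (1.32 and 1.33), and the ratios of HFD-O304 over HFD stay between 0.915 at Ezh2 and 1.11 at Bmi1.

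The third comparison took the whole loci, 1.10 Mb in all. Every gene had H3K27Ac in its locus in each diet (10 of 10, against 63.1%, 69.3% and 67.8% of all genes), with 23, 26 and 27 peaks. H3K27Me3 was called in the loci of 2, 3 and 4 genes, against 29.9%, 30.6% and 36.4% of all genes, with 4, 6 and 7 peaks. The Jarid2 calls were wholly repeat-masked peaks and an intronic site with further copies in the reference, and the Kdm6a call was wholly repeat-masked. Per Mb this was 20.9, 23.6 and 24.5 H3K27Ac peaks, where the genome had 5.93, 7.86 and 7.38, and 3.63, 5.45 and 6.35 H3K27Me3 peaks, where the genome had 5.57, 5.54 and 7.94. The genome values cover whole chromosomes, whereas each locus holds a gene start by construction. Peak density in the loci of other genes was not computed. Larger genes span more bases, and the loci ran from 49.6 kb for Bmi1 to 232 kb for Jarid2.

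Joined across diets, the H3K27Ac peaks formed 28 sites, of which 22 were called in all 3 diets. Start sites of neighbouring genes held 9 of them, among these the starts of Commd3 upstream of Bmi1, Hikeshi near Eed and Trap1 near Crebbp. The remaining 6 sites were 3 called in HFD and HFD-O304 and 3 called in 1 diet each. The Bmi1 start was one of the former, with the L3mbtl2 start near Ep300 (3.68 in HFD, 2.89 in HFD-O304) and a site beyond the end of Suz12 (2.35 and 2.55). Those of 1 diet were an exon of Jarid2 in RD (2.71), a site upstream of Suz12 in HFD (2.43) and an exon of Kdm6b in HFD-O304 (2.82). Ezh1 had an intergenic site between −5.9 and −4.4 kb from its start in every diet, at 2.66, 2.55 and 2.50.

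H3K27Me3 formed 7 sites, 4 of them called in all diets, and they lay around Bmi1, Jarid2, Suz12 and Kdm6a. The loci of Ezh1, Ezh2, Eed, Kdm6b, Ep300 and Crebbp had none in any list. Upstream of Suz12, between −19.4 and −18.6 kb, an H3K27Me3 peak was called in HFD at 3.49 (2.78 to 4.34) and in HFD-O304 at 3.75 (3.03 to 4.57). RD had no peak there, and the RD signal at this site is not given in the lists. In HFD this site also held the weak H3K27Ac peak named above. Near Kdm6a the only H3K27Me3 peak, in HFD-O304 (3.41 over 289 bp), lay wholly in repeat-masked sequence, as did those between −16.7 and −15.2 kb from the Jarid2 start in all 3 diets (2.75 to 3.16).

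Downstream of Bmi1 the 2 marks met. In the intergenic stretch 11.6 to 13.8 kb from the start, before the neighbouring gene Spag6, H3K27Me3 had an enrichment of 3.42 (3.04 to 3.83) over 2207 bp, 4.24 (3.75 to 4.78) over 2197 bp and 4.03 (3.55 to 4.55) over 2083 bp. H3K27Ac was called within the same stretch in each diet, at 2.69 over 281 bp, 2.73 over 1575 bp and 2.63 over 1752 bp. These H3K27Ac values are means over each list's own peak and lie near the weakest enrichment called. The called width was smallest in RD, with an estimated 34 fragments under the peak, against 219 in HFD and 208 in HFD-O304. The H3K27Ac level over the whole stretch in RD is not given in the lists. The central 300 bases printed above held 13 CpGs with 58.0% GC. At the Spag6 start H3K27Ac was called in all diets (3.28 to 3.54) and H3K27Me3 in HFD (3.21) and HFD-O304 (3.15), and a further H3K27Me3 peak lay in the body of Spag6 in all diets (3.50 to 4.02). Spag6 encodes an axonemal protein of cilia and sperm tails. Whether both marks sat on the same alleles or in different cells of the islet cannot be read from peak lists.

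The strongest peaks in the loci were those of the Jarid2 intron, 140 kb from the start. There H3K27Ac had an enrichment of 16.0 (14.3 to 17.9), 16.9 (15.3 to 18.6) and 14.6 (13.0 to 16.3), and H3K27Me3 had 29.5 (27.1 to 32.0), 29.4 (26.6 to 32.5) and 31.7 (28.8 to 34.8). All 6 peaks were 453 to 473 bp wide and overlapped, so both marks were called on the same short stretch at levels above every other peak in the loci. At most 2.35% of their bases were repeat-masked. A search of the reference with its 474 bases found 14 other copies on 12 chromosomes, of at least 300 aligned bases and 90.9% to 98.6% identity, and 5 of these copies had a peak in all 6 lists. Of the RD H3K27Ac peaks with an enrichment of at least 10, 87 reached that level in all 6 lists. No input was subtracted, and the part of copy number in the signal at this site was not tested. Without it the H3K27Me3 calls in the Jarid2 locus were the repeat-masked peaks alone.

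**Figure D4:**
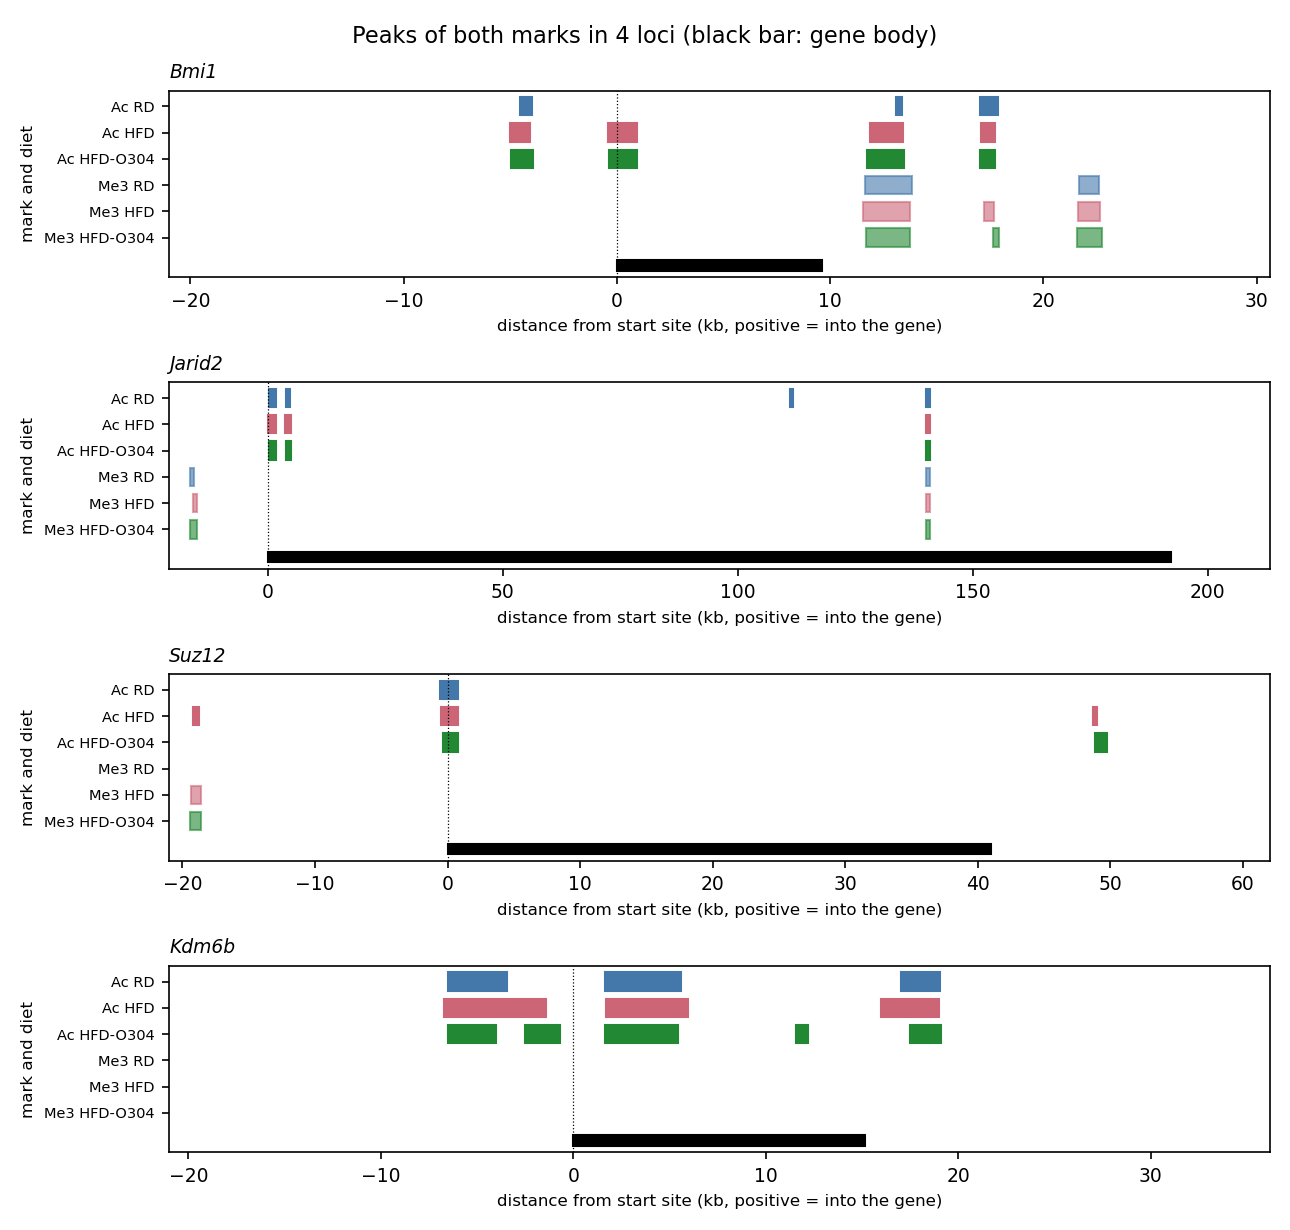
Peaks of H3K27Ac (Ac, full colour) and H3K27Me3 (Me3, pale) in the loci of Bmi1, Jarid2, Suz12 and Kdm6b, by distance from the start (horizontal axis, kb, positive into the gene) and list (vertical axis). Narrow peaks are drawn at a minimum width, and the black bar is the gene body. Peaks of both marks overlap downstream of Bmi1 and in the Jarid2 intron in all diets. The Jarid2 intronic sequence has 14 other copies in the reference, and the part of copy number in its signal was not tested. No H3K27Me3 bar lies at the start site of the gene shown.

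Other genes of the pathway were taken from 5 lists with 54 genes, given here by counts. H3K27Ac was at the TSS of 43, 45 and 44 of them, and at any annotated coding start of 50, 51 and 50, against 46.7%, 52.6% and 52.0% of all genes by the latter rule. Among the 10 genes that rule gave 8, 9 and 10. By list, the PRC2 accessory genes had 6, 7 and 6 of 7, PRC1 17, 18 and 17 of 19, the partners and paralog of the KDM6 demethylases 5, 5 and 5 of 9, other acetyltransferases and acetyl-lysine readers 8, 8 and 8 of 10, and deacetylases with their corepressors 7, 7 and 8 of 9. In all diets 41 genes had a peak, against 42.4% of all genes, and 8 had none.

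The strongest in RD were Brd2, a reader of acetylated histones, with 4.72, 5.36 and 5.25, and Ring1, a ubiquitin ligase of PRC1, with 4.63, 4.29 and 5.18. The TSS call of 5 genes differed between diets, and the share of all genes with any such difference was not computed. Of all genes, 4.49% had a peak in HFD and HFD-O304 but not in RD, and 1.84% in HFD-O304 alone. Aebp2, a PRC2 cofactor, lacked a peak in RD and had 3.99 in HFD and 3.66 in HFD-O304, with a peak at another start in RD, and Cbx2, an H3K27Me3 reader of PRC1, lacked it in RD at 2.57 and 2.64 in the other diets. Phf19 (2.47 in RD, 2.53 in HFD) and Bcor (2.58 and 2.59) lacked it in HFD-O304, and the deacetylase Sirt1 had it in HFD-O304 alone (2.65). Sirt1 and Bcor likewise had a peak at another start in the lists where the TSS lacked one. All values but those of Aebp2 were near the weakest enrichment called.

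H3K27Me3 was called at the TSS of 2, 4 and 3 of the 54 (4 in at least 1 diet), against 6.62%, 8.45% and 8.88% of all genes. Epop, a PRC2 cofactor of embryonic stem cells, had 3.95, 4.53 and 4.55, and Cbx8, another chromodomain subunit of PRC1, had 3.32, 3.79 and 3.72. Phf19, which recognises methylated H3K36, had it in HFD (3.43) and HFD-O304 (3.21). These 3 genes also had an H3K27Ac peak at the TSS in at least 1 diet.

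Cdkn2a, the Polycomb target in beta cells, carried different marks at its alternative starts. At the 5′ start H3K27Ac was weak, at 2.54 (2.13 to 3.0), 2.28 (1.68 to 3.01) and 2.43 (2.02 to 2.88). At the start 12.5 kb further downstream H3K27Me3 had 3.14 (2.71 to 3.63), 4.02 (3.44 to 4.65) and 3.72 (3.29 to 4.20), with no H3K27Ac peak. The H3K27Me3 value was lowest in RD, with overlapping intervals.

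**Figure D5:**
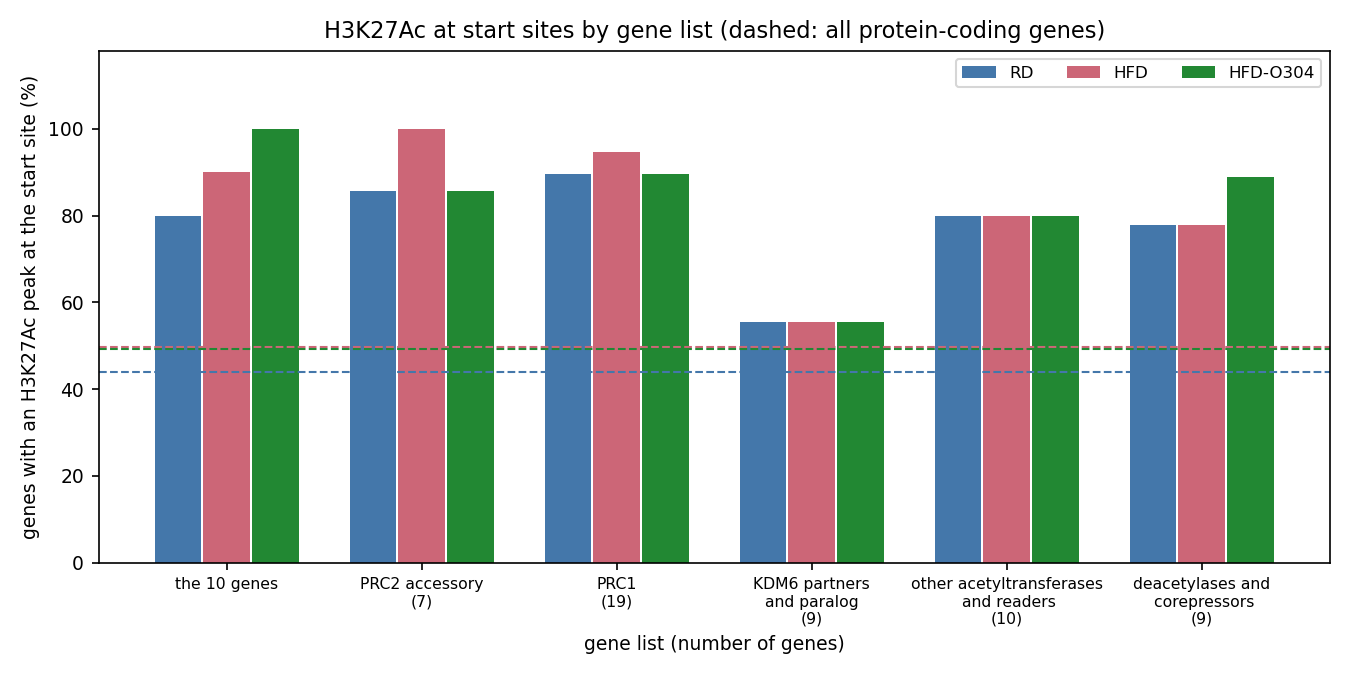
Share of genes with an H3K27Ac peak within 1 kb of the TSS (vertical axis, percent, from 0) for the 10 genes and the 5 pathway lists (horizontal axis), by diet. Dashed lines give the share of all protein-coding genes, 43.9%, 49.7% and 49.2%. The partners of the KDM6 demethylases, with 5 of 9 in each diet, stand nearest to these lines.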

How the data were processed

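H3K27Ac and H3K27Me3 ChIP-seq of islets was analysed from 6 deposited broad-peak lists. Per the study's methods and the file headers, the authors aligned paired-end reads to GRCm38 with Bowtie2, merged the 2 replicates and called peaks with MACS 2.1.2 (BAMPE, q cutoff 0.01 in the headers, no local background, no control, 1 fragment kept per position). The methods text states the same FDR but lists another value for the q option. The deposited pileup is a coverage signal, the deposited fold enrichment a ratio of pileup plus 1 to background plus 1, and the −log10 q is the score of the authors' peak caller. Fold enrichment served as an alternative.

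Enrichment, overlaps (at least 1 bp, strongest −log10 q kept) and Poisson intervals were computed in Python 3.11.15 (pandas 2.3.3, scipy 1.17.1, pysam 0.24.0). Fragments under a peak were estimated as pileup times length over fragment length. The TSS was the 5′ end of the GENCODE M21 gene record, and CpG content was read from the GRCm38.p6 reference. Copies were searched with blastn 2.17.0. No peak passed a chromosome end of GRCm38. On simulated peaks the window search found 700 of 700 planted sites.

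The 10 genes and the gene lists were chosen with earlier results of these data known. Of the pathway genes, those named had a TSS call that differed between diets, H3K27Me3 at the TSS, or 1 of the 2 highest H3K27Ac enrichments in RD. Cdkn2a was named as a Polycomb target, and its downstream start was added after its values were seen. Stricter q values, a common lowest enrichment, equal list sizes, repeat content, other windows, starts and flanks were tried. The ductal markers and the values of 1 pathway gene with H3K27Me3 at its TSS are not reported here. Expression was not analysed here.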

Additional observations from a re-analysis of the deposited data

How the results depend on the processing

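Over 14 alternative settings, 2 of them chosen after seeing the data (RefSeq starts, and leaving out the Jarid2 intronic site), 21 counts and medians were recomputed, and 162 of 177 values stayed within 1.5 times the reported count, the counting interval of the median enrichment or 10% of the median width. The count of 0 genes with H3K27Me3 at the TSS held in each diet under every setting run on it. Only the window of 2000 bp and the other transcript starts could have raised it, since the remaining settings only take calls away. The other 15 values concerned peaks in the loci, and each was lower than reported. Without flanks (0 kb) the H3K27Ac peaks numbered 12, 12 and 13 in RD, HFD and HFD-O304, the H3K27Me3 peaks 1, 1 and 1, and the genes with H3K27Me3 1, 1 and 1. That gene was Jarid2, through its intronic site, whose sequence has further copies in the reference. Asking for a −log10 q of 5 or more left 14 H3K27Ac peaks in RD, 2 H3K27Me3 peaks in HFD and 3 in HFD-O304, and 2 genes with H3K27Me3 in HFD-O304. Without peaks at starts of other genes, H3K27Ac peaks numbered 15 in RD and 17 in HFD. No paired analysis was possible because each list joins both replicates of a group, so none could be paired or left out. Depth limits what is listed: a start with an enrichment under about 2.4 for H3K27Ac or 2.7 to 3.1 for H3K27Me3 has no peak, and a missing peak is not a measured absence of the mark.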
